A study of Mus musculus with 14 samples.

Results

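The Lx subfamilies are old rodent-specific subfamilies of LINE-1 (L1), the autonomous non-LTR retrotransposons of the mouse genome. An Lx copy was a row of both deposited tables of transposable element (TE) copies with the family L1 and a subfamily name beginning with Lx. By this rule 346814 of the 3725827 TE copies, and of the 905228 L1 copies, were Lx copies, and they fell into 21 of the 133 L1 subfamilies. The same 21 subfamilies had a row of counts in the subfamily tables of both stages.

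Poly-A RNA from sorted mouse germ cells on the C57Bl6/J background was sequenced in 14 libraries. Spermatogonia (Spg), the premeiotic germ cells, came from juvenile testes and were sorted as Ep-CAM positive and β2-microglobulin negative cells, with 3 libraries from Dnmt3C KO/KO mice and 3 from wild type (WT). Spermatocytes (Spc), the cells in meiosis, came from older mice and were sorted by Hoechst staining, with 4 KO and 4 WT libraries. The study gathered sorted cells or littermate testes until each genotype had its replicates, and which of these libraries came from littermates is not given. Stage could not be told apart from sort and age. The single Spg replicate of each genotype that the study set aside for RNA quality was not analysed here. By the study's description KO spermatocytes arrest at pachytene, so that the WT sort held later cells that the KO sort lacked.

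L1 elements transcribe themselves from a promoter in their 5′ end and insert a new DNA copy by reverse transcription, a process that often stops early and leaves copies without a promoter. The Lx elements stopped moving long ago, and what remains of them is largely truncated and mutated sequence, whereas the L1Md_T, L1Md_A and L1Md_Gf subfamilies still hold mobile members. DNMT3C is a rodent de novo DNA methyltransferase that acts in fetal male germ cells on the promoters of young retrotransposons. The Lx copies had a median length of 306 bp with quartiles of 148 and 584 bp, the longest had 7529 bp, and 450 (0.13%) were 5 kb or longer.

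Stretches of sequence from 4 of the Lx copies described below are shown first, to show Lx sequence at gene starts and in exons. The first pair lay at or just before the starts of non-coding genes, inside Lx2A1 copies that carried almost no reads in KO spermatocytes, on the strand opposite to the Lx2A1 copy. They came from the RefSeq promoter windows on GRCm38.p6, at chr5:11501419-11501551 for 4930437M23Rik in Lx2A1_dup643 and at chr5:13808247-13808379 for 4930568A13Rik in Lx2A1_dup664, both on the minus strand and 133 bases long. The pair of capitals begins 101 bases before the start of 4930437M23Rik, which lies beyond the printed stretch, and 35 bases before that of 4930568A13Rik, which lies within it. Capitals mark CAGTTG and its reverse complement CAACTG, the core recognised by MYB proteins, the family of the meiotic regulator MYBL1 (A-MYB).
4930437M23Rik: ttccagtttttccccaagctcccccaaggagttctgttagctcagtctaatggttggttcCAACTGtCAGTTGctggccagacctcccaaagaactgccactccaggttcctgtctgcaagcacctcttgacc
4930568A13Rik: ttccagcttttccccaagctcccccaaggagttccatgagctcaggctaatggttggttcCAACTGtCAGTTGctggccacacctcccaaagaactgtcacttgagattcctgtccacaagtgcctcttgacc
The second pair came from exons of GENCODE M21 transcripts on GRCm38, with the Lx part in capitals. The stretch of Gm20750 at chr3:52910311-52910478 on the minus strand was taken wholly from Lx8b_dup3750, which lay 354 bp from a long young L1 and gained reads in KO. In the stretch of Gm26799 at chr6:112704362-112704660 on the plus strand, 285 of 299 bases belonged to Lx8_dup17195, which lost reads in KO.
Gm20750: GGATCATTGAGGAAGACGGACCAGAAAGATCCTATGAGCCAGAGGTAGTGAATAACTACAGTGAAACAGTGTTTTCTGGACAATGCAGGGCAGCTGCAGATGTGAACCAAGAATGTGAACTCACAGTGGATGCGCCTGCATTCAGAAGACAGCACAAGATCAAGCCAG
Gm26799: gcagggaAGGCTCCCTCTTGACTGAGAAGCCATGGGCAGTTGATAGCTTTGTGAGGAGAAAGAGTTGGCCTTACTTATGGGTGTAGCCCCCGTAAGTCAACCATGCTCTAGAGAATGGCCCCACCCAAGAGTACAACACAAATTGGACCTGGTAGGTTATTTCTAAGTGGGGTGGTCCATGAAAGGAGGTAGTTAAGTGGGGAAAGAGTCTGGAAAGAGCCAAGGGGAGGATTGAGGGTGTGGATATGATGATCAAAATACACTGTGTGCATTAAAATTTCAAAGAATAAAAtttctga

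Libraries held 40555726 to 53323651 counts over genes and TE subfamilies. The transcript of the targeted gene did not fall: Dnmt3c had 116, 58 and 67 counts in KO against 89, 65 and 53 in WT Spg, and 55, 56, 52 and 57 in KO against 28, 11, 19 and 25 in WT Spc, so the gene count does not check the genotype labels. In Spc the 7 pachytene marker genes summed to 74.0 to 221 TMM-scaled counts per 1000000 (CPM) in KO and 5210 to 10400 in WT, with 6 of 7 lower, and the spermatid markers to 2.30 to 9.92 against 55.3 to 1260 CPM, with 7 of 7 lower. Spermatogonial markers reached 430 to 1050 CPM in KO against 81.5 to 267 CPM in WT Spc, with 7 of 9 higher, and Leydig, macrophage and peritubular markers were higher at 5 of 5, 4 of 4 and 3 of 4 genes, at up to 276, 57.6 and 128 CPM in KO. In Spg, WT replicate 2 stood apart with 1210 CPM of pachytene markers against 302 and 117 CPM in the other WT libraries and 50.5 to 91.8 CPM in KO. The part of these differences in the Lx results was not tested. Replicates 1 and 4 were the most alike libraries of each Spc genotype, with a chi-square per degree of freedom of 11.6 in KO and 14.87 in WT against 129.29 to 285.91 for the other pairs, but above sampling noise. The study describes fewer biological replicates per genotype than there are Spc libraries, and whether replicates 1 and 4 are repeat preparations of one sample is not given in the labels, so they were kept as separate samples as labelled. If each such pair were 1 sample, the smallest exact p in Spc would be 0.10 in place of 0.0286. In such bulk libraries fewer cells of a type and less RNA per cell cannot be told apart.

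Lx RNA was a small part of every library, and its level was not shown to differ between genotypes in either stage. In Spg, Lx subfamilies took 0.110%, 0.159% and 0.110% of all counts in KO and 0.0805%, 0.136% and 0.116% in WT, and the groups overlapped. The means were 0.126% ± 0.0285 and 0.111% ± 0.0282 (SD, n = 3), a difference of 0.0156 percentage points (two-sided exact permutation test, p = 0.60; the smallest p for 3 against 3 libraries is 0.10). In Spc the share was 0.229%, 0.173%, 0.260% and 0.241% in KO and 0.140%, 0.140%, 0.186% and 0.135% in WT, so that 3 of the 4 KO libraries lay above every WT library. The means were 0.226% ± 0.0375 and 0.150% ± 0.0237 (SD, n = 4), a difference of 0.0754 points (exact permutation test, p = 0.0571, adjusted p = 0.114 over the 2 stages). Counting error was small beside this spread, with Wilson 95% intervals of at most ±0.00149 points.

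Set against TE counts alone, Lx was lower in every KO than in every WT library of both stages. Lx held 2.96% ± 0.0526 of TE counts in KO Spc and 7.07% ± 0.704 in WT Spc (exact permutation test, p = 0.0286, the smallest for 4 against 4 libraries, adjusted p = 0.0572), and 2.96% ± 0.0837 against 3.64% ± 0.198 in Spg (exact permutation test, p = 0.10). Young L1 subfamilies rose in the same libraries. The 7 young mouse L1 subfamilies had a median log2 fold change of 4.19 in KO Spc, with 6 called higher, and of 2.4 in KO Spg, with 3 called higher. The 21 Lx subfamilies had medians of -0.01 and 0.16. The 12 other rodent L1 subfamilies stood at 1.07 and 0.24, and the ancient L1 subfamilies at 0.19 and -0.04.

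Single Lx subfamilies moved in opposite directions in KO spermatocytes. Lx2A, Lx, Lx2B2 and Lx2 were higher and Lx2A1 and Lx2B were lower at an adjusted p under 0.01 (edgeR quasi-likelihood test, Benjamini-Hochberg over all genes and subfamilies). These 6 of 21 (28.6%, 19.0% higher and 9.52% lower) compare with 25.7% of all TE subfamilies (11.7% higher and 14% lower) and 57.4% of all features. The remaining 15, namely Lx3A, Lx3B, Lx3C, Lx3_Mus, Lx4A, Lx4B, Lx5, Lx5b, Lx5c, Lx6, Lx7, Lx8, Lx8b, Lx9 and Lx10, did not pass. Without overlap between KO and WT libraries in CPM, 4 subfamilies were higher (19.0%, against 22.3% of TE subfamilies) and 6 lower (28.6%, against 23.5%). Without TMM scaling these became 9 higher (42.9%, against 44.8%) and 1 lower, Lx2A1 (4.76%, against 11.1%). Scaling by library totals in place of TMM shifted the median gene from 0.107 to 0.794 on the log2 scale and gave 9 calls, 8 higher and 1 lower. With replicates 1 and 4 of each genotype summed, 3 calls were left, Lx higher (adjusted p = 0.00484) and Lx2A1 and Lx2B lower (0.000173 and 0.00922), while Lx2A, Lx2B2 and Lx2 had adjusted p-values of 0.0147, 0.0254 and 0.0479.

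Lx, the subfamily with the highest level in KO Spc, had 303, 203, 299 and 337 CPM in KO and 89.1, 79.3, 133 and 89.9 CPM in WT. No KO library overlapped a WT library, and the log2 fold change was 1.54 ± 0.24 (SE; adjusted p = 0.000296). Lx2A, at a lower level, had 26.0, 10.6, 23.6 and 30.7 CPM in KO against 4.84, 4.70, 8.01 and 7.51 CPM in WT, a log2 fold change of 1.86 ± 0.38 (adjusted p = 0.00166). Again the groups did not overlap. Lx2B2 had 125, 66.8, 122 and 142 CPM against 54.5, 38.4, 61.2 and 53.2 CPM (log2 fold change 1.14 ± 0.26, adjusted p = 0.00309). Lx2 had 108, 72.6, 106 and 116 CPM against 58.6, 46.5, 67.3 and 54.7 CPM (log2 fold change 0.82 ± 0.21, adjusted p = 0.00529). In all 4 subfamilies KO replicate 2 was the lowest KO library and still lay above all WT libraries. Lx2 and Lx2B2 lost the call in 6 and 4 of the 8 fits that each left out 1 library.

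Lx2A1 fell the furthest of the 21 subfamilies in KO Spc. It had 8.97, 5.88, 9.47 and 10.0 CPM in KO and 288, 175, 101 and 263 CPM in WT, a log2 fold change of -4.59 ± 0.37 (adjusted p = 8.41e-06). The WT libraries varied widely among themselves but all lay far above KO. Lx2B had 31.7, 24.0, 38.3 and 33.2 CPM against 59.2, 79.0, 79.6 and 55.6 CPM (log2 fold change -1.11 ± 0.23, adjusted p = 0.00161). Its groups lay apart on the TMM scale but not without it, where Lx2B had 38.2, 33.7, 50.7 and 39.2 counts per 1000000 in KO and 40.4, 64.1, 79.7 and 37.5 in WT.

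**Figure D1:**
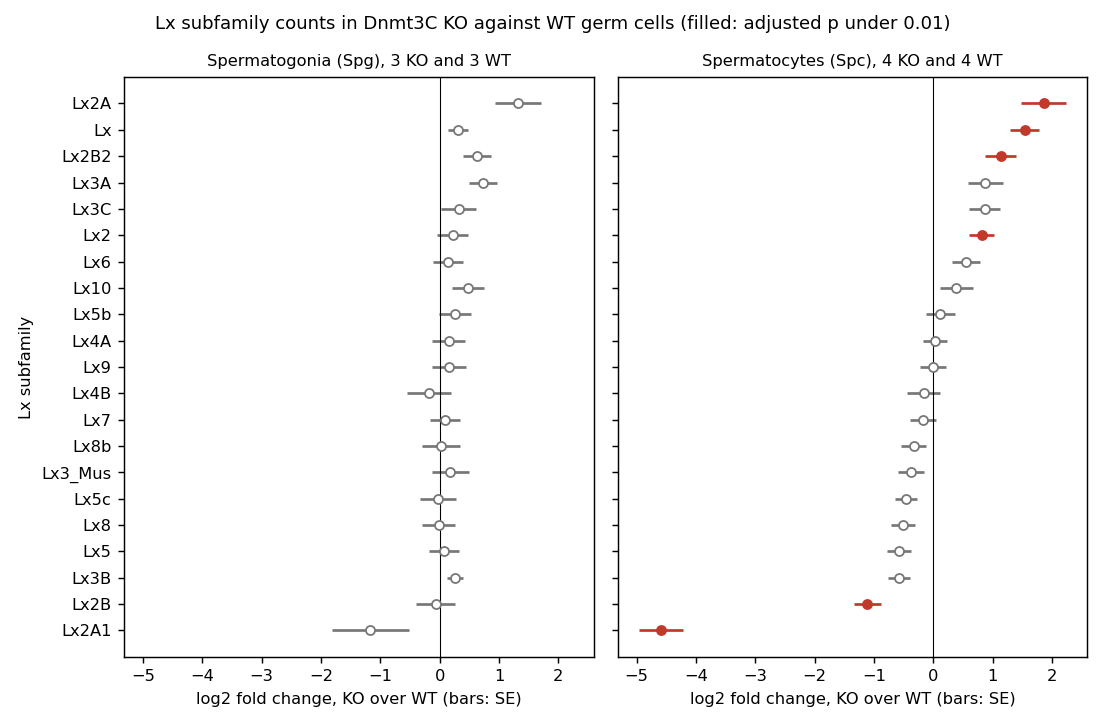
Log2 fold change of KO over WT (horizontal axis) for the 21 Lx subfamilies (vertical axis), with bars for the SE, in Spg (3 KO and 3 WT libraries) and Spc (4 and 4), filled points marking an adjusted p under 0.01. In Spc the 6 filled points run from -4.59 for Lx2A1 to 1.86 for Lx2A, and in Spg no point is filled.

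No Lx subfamily passed the test in spermatogonia, where edgeR called 0.76% of TE subfamilies and 0.0741% of all features. At an unadjusted p under 0.05 there were 3 of 21, beside 57 of 921 TE subfamilies and 1566 of 21580 features, and DESeq2 also called 0. Lx10, Lx2A, Lx2B2, Lx3A and Lx3B were higher in every KO than in every WT library, which is 23.8% of the subfamilies against 5.54% of all TE subfamilies, and 0 were lower throughout, against 2.17%. Without TMM scaling the same 5 were higher, against 6.08% of TE subfamilies, and 0 lower, against 1.95%. Lx2A had 9.70, 9.07 and 3.91 CPM in KO Spg against 2.88, 3.38 and 2.80 CPM in WT (log2 fold change 1.32 ± 0.38, adjusted p = 0.288). In unscaled reads its log2 ratio went from 1.36 to 0.3 without its leading copy, Lx2A_dup1133, which held 52.8% of Lx2A reads in KO Spg. Lx3A had 21.8, 27.0 and 18.6 CPM against 11.3, 15.4 and 14 CPM (0.73 ± 0.23, adjusted p = 0.371).

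The change in KO differed between the stages for Lx2A1 and Lx3B. The Lx2A1 effect in Spc minus that in Spg was -3.49 ± 0.73 on the log2 scale (edgeR, adjusted p = 0.00231). Without 1 library it ran from -4.628, without Spg WT replicate 2, to -3.012, and it kept the call. In Spg Lx2A1 was low in both genotypes, at 4.25, 6.84 and 4.27 CPM in KO and 5.56, 24.8 and 4.27 CPM in WT. For Lx3B the difference was -0.89 ± 0.24 (edgeR, adjusted p = 0.00873). It rested on the scaling, being -0.148 with library totals, and the fit blocked on replicate numbers gave an adjusted p of 0.0178. It also lost the call in 13 of 14 fits without 1 library. The direction rested on the leading copy, Lx3B_dup3459. Without that copy the log2 ratio of Lx3B in unscaled reads went from 0.13 to 1.35 in Spc and from 0.28 to 0.42 in Spg. The Spc ratio was then the larger. Lx2A1 and Lx3B are 9.52% of the Lx subfamilies, against 6.44% of TE subfamilies called.

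In wild type, Lx levels were higher in spermatocytes than in spermatogonia for most subfamilies. Relative to TMM-scaled totals 17 of 21 (81.0%) were higher in WT Spc and none was lower, against 22.7% of TE subfamilies higher, with Lx, Lx2, Lx3C and Lx6 not passing. The median Lx log2 difference was 1.22, beside 0.23 for the ancient L1 subfamilies and 0.61 for the other rodent ones. With library totals, which moved the median gene from 0.021 to -0.761, 5 passed, 4 of them higher, so that the number rests on the scaling. It also fell to 6 without Spg WT replicate 1 and to 8 without Spg WT replicate 3. Lx2A1 led at 4.66 ± 0.60 (edgeR, adjusted p = 3.04e-05), and at 4.132 to 5.748 without 1 library. Lx2B followed at 2.12 ± 0.31 (edgeR, adjusted p = 7.31e-05). Lx8, one of the most abundant, went from 80.9, 149 and 123 CPM in WT Spg to 326, 301, 308 and 322 CPM in WT Spc, with all 14 libraries scaled together (log2 difference 1.42 ± 0.25, adjusted p = 0.000271). Lx9 went from 58.6, 112 and 102 CPM to 230, 154, 193 and 220 CPM, but overlapped without TMM scaling, at 71.2, 138 and 118 against 140, 104, 164 and 133 counts per 1000000 (1.14 ± 0.28, adjusted p = 0.0026). Between KO Spc and KO Spg 3 of 21 (14.3%) were higher, Lx2A, Lx2B2 and Lx3A, against 1.43% of TE subfamilies. These calls were not stable, with 0 left when Spc replicates 1 and 4 were summed, 1 with library totals, 0 to 6 without 1 library and 12 with DESeq2.

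A few copies carried much of the Lx RNA. At least 1 read fell on 46843 Lx copies (13.5%) over all libraries. The copies that together held 50% of the Lx reads numbered 620 in KO Spg, 477 in WT Spg and 650 in KO Spc, but 96 in WT Spc. There the 100 leading copies held 50.6% of the Lx reads, against 28.3% in KO Spc, 29.9% in KO Spg and 31.4% in WT Spg. Subfamily changes therefore depended on single copies to different degrees. In reads per 1000000 gene and TE counts (RPM), which are not TMM-scaled and so not on the footing of the CPM above, the log2 ratio of Lx2A in Spc went from 2.52 to 1.25 without its leading copy, that of Lx2B2 from 1.8 to 1.1, and that of Lx2B turned from -0.47 to 1.14. The ratio of Lx moved from 2.19 to 2.08 without 1 copy and to 1.69 without 10, and that of Lx2A1 from -3.85 to -3.47 and to -0.82.

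Copies were tested on length-scaled values (TPM, summing to 1000000 in each library) computed over TE copies alone, so that a rise of other TEs lowers the TPM of Lx. A copy was tested at a mean TPM of at least 0.5 over both genotypes, so that a copy read in 1 genotype only passed through that genotype. In Spc limma on log2(TPM + 0.1) called 655 Lx copies higher and 656 lower among 7301 tested (18%, 8.97% higher and 8.99% lower), against 11.2% of all TE copies (7.17% higher and 4.06% lower). The number and the even split rested on the libraries and settings. With replicates 1 and 4 averaged 200 were higher and 307 lower, at a mean TPM of at least 2 the numbers were 297 and 464, with a median ratio scaling 439 of 1268 were higher, and without WT replicate 1 or 4 they were 326 and 378 or 328 and 386. With TPM rescaled to gene and TE reads the split was 1133 higher and 387 lower (15.5% and 5.30%, against 13.8% and 2.45% of all TE copies). The edgeR test on the whole reads recovered from TPM called 897 higher and 824 lower (12.3% and 11.3%, against 8.16% and 4.29% of all TE copies), and 1113 copies were called by both limma and edgeR, each with the same sign. In Spg limma called 0 of 5770 Lx copies (0.00911% of all TE copies either way), while edgeR on reads called 75 higher and 47 lower (2.11%, 1.3% and 0.815%, against 1.59%, 1.41% and 0.181% of all TE copies).

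Lx copies near young L1 elements were called higher at a larger share than Lx copies in all. The 8474 L1Md_T, L1Md_A and L1Md_Gf copies of 5 kb or longer were taken as long young L1, and 17101 Lx copies (4.93%) lay within 5 kb of one. Of these, 663 were tested in Spc and 249 were higher and 15 lower (37.6% and 2.26%), beside 8.97% and 8.99% of all Lx copies tested. Their summed TPM was 3622, 1692, 2593 and 3990 in KO Spc and 545.3, 358.3, 583.7 and 477.6 in WT Spc, without overlap. The log2 ratio of the means was 2.60 (two-sided exact permutation test, p = 0.0286, adjusted p = 0.040), and in RPM the sums were 348 ± 113 and 26.9 ± 8.93 (log2 ratio 3.69). In Spg they were 1524, 805.1 and 772.1 TPM in KO and 239.7, 297.5 and 291.5 TPM in WT, again apart, at a log2 ratio of 1.9 (exact permutation test, p = 0.10, the smallest for 3 against 3 libraries). Lx copies farther away fell in TPM (log2 ratio -0.55, exact permutation test, p = 0.0286), but their sums in RPM were 1880 ± 280 in KO and 1460 ± 224 in WT (log2 ratio 0.37, p = 0.0571).

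In both scales the KO to WT ratio was smaller beyond 5 kb than within it, but its sign in the outer bins rested on the scale. In RPM, on which the median gene is also shifted upward in Spc, the Spc log2 ratio was 6.15 for the 254 Lx copies that overlapped a long young L1, 3.71 up to 1 kb, 3.62 from 1 to 5 kb, 1.57 from 5 to 20 kb, 0.63 from 20 to 100 kb and 0.07 beyond that (exact permutation test, p = 0.514 for the last). The Spg series was 2.84, 2.23, 2.2, 0.93, 0.2 and -0.01. In TPM the Spc ratio was 2.81 up to 1 kb, 2.51 from 1 to 5 kb, 0.28 from 5 to 20 kb (exact permutation test, p = 0.40), -0.37 from 20 to 100 kb (p = 0.114) and -0.74 beyond that, where every KO lay below every WT library (exact permutation test, p = 0.0286). In Spg the TPM ratio of the farthest bin was -0.12, also with every KO below every WT library (exact permutation test, p = 0.10). These bins were added after the values had been seen.

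**Figure D2:**
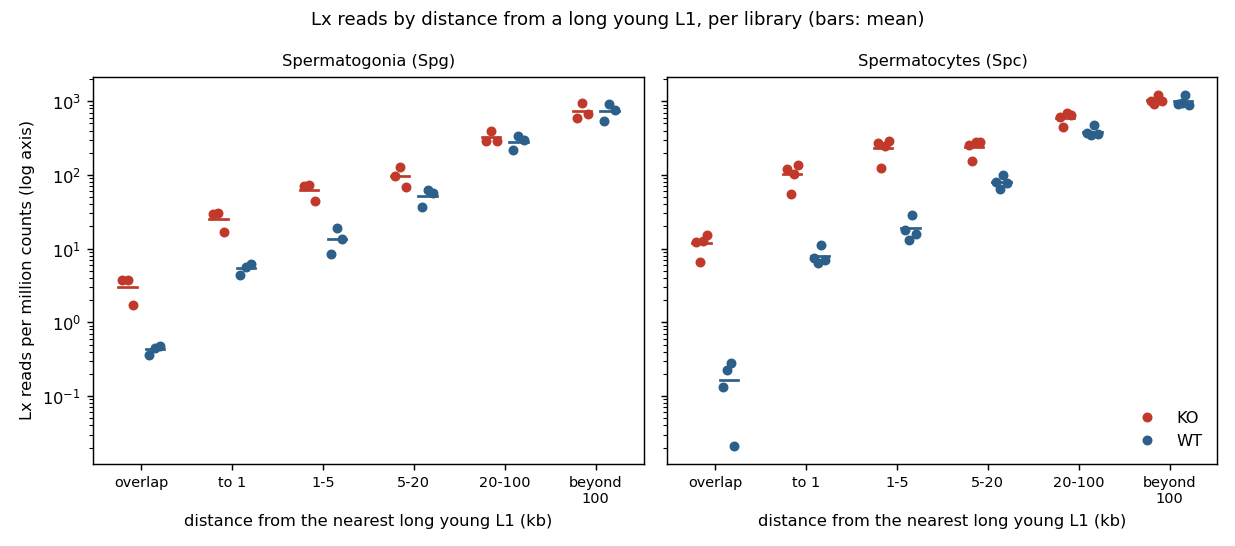
Lx reads per 1000000 counts in each library (vertical log axis) by distance in kb from the nearest long young L1 (horizontal axis), in Spg and Spc, with a point for each library and a bar for the mean. KO lies above WT by a log2 ratio of 6.15 for overlapping copies in Spc and 2.84 in Spg, and in the farthest bin the groups overlap on this scale, with log2 ratios of 0.07 and -0.01, while in TPM they lie apart at -0.74 and -0.12.

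The copies downstream on the same strand had the highest KO to WT ratio among the 4 classes of side and strand. These classes together hold all 17101 copies within 5 kb, so that the 254 overlapping a long young L1 are among them. The 4414 Lx copies within 5 kb downstream of a long young L1 and on its strand had a summed TPM of 2854, 1202, 1905 and 3181 in KO Spc and 72.79, 58.98, 125 and 82.73 in WT Spc. Every KO library was above every WT library, and the log2 ratio of the means was 4.75 (two-sided exact permutation test, p = 0.0286, adjusted p = 0.0572), a 26.9-fold difference. Of the 462 tested, 216 (46.8%) were called higher and 1 (0.216%) lower by limma, where 8.97% and 8.99% of all Lx copies and 7.17% and 4.06% of all TE copies were called. In Spg the same copies had 1042, 511.6 and 477.2 TPM in KO and 57.71, 58.41 and 47.06 TPM in WT (log2 ratio 3.64, exact permutation test, p = 0.10), and limma called 0 of the 209 tested, while edgeR on reads called 34 (16.3%) higher and 0 lower, against 1.3% and 0.815% of all Lx copies and 1.41% and 0.181% of all TE copies.

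Downstream copies on the other strand had close values in KO and WT Spc on the TPM scale. The 3536 of them had a summed TPM of 101 in KO and 104 in WT Spc (log2 ratio -0.05, exact permutation test, p = 0.714), with 1 of 38 higher (2.63%) and 3 lower (7.89%) by limma, although the log2 ratio in RPM was 1.15 (exact permutation test, p = 0.0571). In Spg they had 60.1 against 38.8 TPM (log2 ratio 0.63, exact permutation test, p = 0.10), and every KO library, at 45.3 to 72.8 TPM, lay above every WT library, at 31.0 to 43.8. The 4890 upstream copies on the same strand had 204 against 145 TPM (log2 ratio 0.49, exact permutation test, p = 0.0857) in Spc, and a log2 ratio of 0.99 in RPM (exact permutation test, p = 0.0286). The 4261 upstream copies on the opposite strand, which point away from the L1 start, had 384 against 157 TPM (log2 ratio 1.29, exact permutation test, p = 0.0286, adjusted p = 0.0572), with 23 of 114 higher (20.2%) and 8 lower (7.02%, near the 8.99% of all Lx copies), and a log2 ratio of 2.26 in RPM (exact permutation test, p = 0.0286). Differences between these classes were not tested, and the split was made after the values had been seen.

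**Figure D3:**
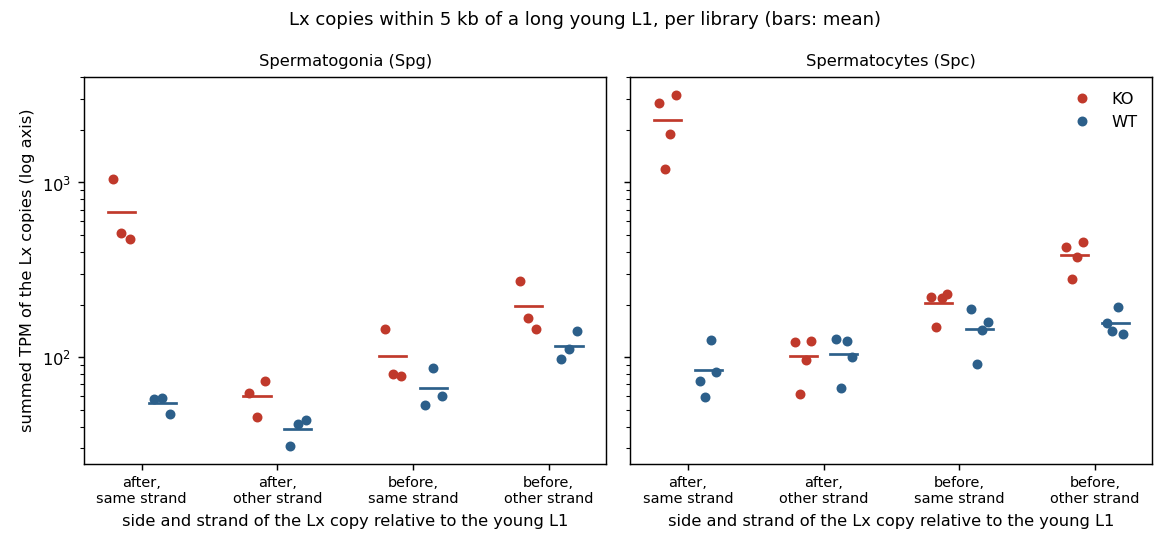
Summed TPM (vertical log axis) of Lx copies within 5 kb of a long young L1 or overlapping it. Copies are classed as after (downstream) or before (upstream) it and on its strand or the other. Points are libraries and bars are means. Copies downstream on the same strand lie at 1202 to 3181 TPM in KO Spc and 58.98 to 125 TPM in WT Spc, while downstream copies on the other strand overlap in Spc.

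Position in genes also went with the change. Lx copies in exons on the other strand held 341 TPM in KO and 1030 TPM in WT Spc (log2 ratio -1.59, exact permutation test, p = 0.0286, adjusted p = 0.040), and the log2 ratio in RPM was -2.27. Those in exons on the same strand were at -1.68 in TPM (exact permutation test, p = 0.0286) but at 0.21 in RPM, and those in introns on the same strand at -0.26 and 0.68, so neither direction held across scales. Copies in introns on the other strand were at 0.39 (exact permutation test, p = 0.0857) and those outside genes at -0.46 (p = 0.0571) in TPM, but in RPM they were at 1.16 (exact permutation test, p = 0.0286) and 0.67 (p = 0.0571). In Spg, where 3 against 3 libraries cannot reach an exact p under 0.05, these classes had log2 ratios in TPM from -0.14 to 0.32. The 450 long Lx copies had 219 ± 22.2 RPM in KO and 98.0 ± 15.9 RPM in WT Spc (log2 ratio 1.16, exact permutation test, p = 0.0286), but differed by 0.09 in TPM (p = 0.371). Most of both RPM sums lay on Lx3B_dup3459, with 78.0 RPM in KO and 84.0 in WT, and Lx_dup18332, with 57.2 and 7.57. The ratios are therefore largely those of these copies, and the rest were not compared apart from them.

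Named copies that rose had no WT reads at all in several cases. Lx_dup15669 (chr10:15641816-15643430, plus strand, in an intron of the lincRNA Gm47712, 999 bp from a long young L1) had 716, 271, 536 and 742 reads in KO Spc and 0 in each WT Spc library, at least 203-fold higher (floor of 3 reads in each WT library). Its limma log2 fold change was 8.35 ± 0.76 (adjusted p = 0.000131), and in Spg it had 196, 129 and 82 reads in KO and 0 in each WT library. Lx2B2_dup837 (chr2:42083457-42089313, plus strand, 5857 bp, in an intron of Lrp1b on the other strand, 4836 bp from a long young L1) had 664, 334, 607 and 683 reads in KO Spc, 298, 220 and 60 in KO Spg and 0 in all 7 WT libraries. That is at least 205-fold in Spc and 59.6-fold in Spg. Lx3_Mus_dup9741 on chromosome 13, which overlapped a long young L1, was at least 92.8-fold higher in Spc, and Lx2B2_dup1910, of 56 bp and 1179 bp from one, at least 7.99-fold. Lrp1b, a gene for a lipoprotein receptor, itself had 138, 79, 154 and 147 counts in KO Spc and 10, 6, 16 and 5 in WT Spc (log2 fold change 3.27 ± 0.46, adjusted p = 0.000184).

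Not all of the rising copies lay near a long young L1. Lx9_dup16799 (chr6:58788291-58788599, minus strand, outside genes) was 70470 bp from the nearest and had 258, 189, 305 and 376 reads in KO Spc, 74, 41 and 45 in KO Spg and 0 in every WT library (limma 9.78 ± 0.68 in Spc). Its neighbour Lx9_dup16798 had 102, 35, 105 and 157 reads in KO Spc and 23, 18 and 8 in KO Spg. The pair share a locus and are not independent. Lx2B2_dup4605 (chr8:40145252-40145739, plus strand, outside genes), with 39.3% of the Lx2B2 reads in KO Spc, had 2834, 1478, 2707 and 3295 reads there and 4, 8, 81 and 0 in WT Spc, a 119-fold difference that became 704-fold without WT replicate 3. In Spg it had 353, 483 and 441 reads in KO against 76, 66 and 30 in WT. Lx2A_dup1133 (chr15:24834819-24836264, minus strand), with 58.7% of Lx2A reads in KO Spc, had 892, 376, 789 and 1012 reads against 1, 0, 1 and 6. In Spg it had 290, 207 and 77 against 2, 1 and 3. Lx_dup1765 (chr1:171908092-171908787, plus strand) had 831, 320, 719 and 923 reads in KO Spc against 1, 3, 7 and 1. Lx_dup22355 on chromosome 16, 116335 bp from the nearest long young L1, was at least 93.1-fold higher in Spc.

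The exon of Gm20750 shown above was part of another copy that rose, 354 bp from a long young L1. Lx8b_dup3750 had 30, 22, 40 and 60 reads in KO Spc, 24, 16 and 31 in KO Spg and 0 in every WT library (limma log2 fold change 6.60 ± 0.78 in Spc, adjusted p = 0.000415). Gm20750 as a gene had 446, 229, 440 and 449 counts in KO Spc and 0, 4, 5 and 2 in WT, and 188, 204 and 101 in KO Spg and 2, 0 and 0 in WT. Its log2 fold change was 6.58 in Spc (edgeR, adjusted p = 3.29e-05) and 7.6 in Spg (adjusted p = 0.0101).

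**Figure D4:**
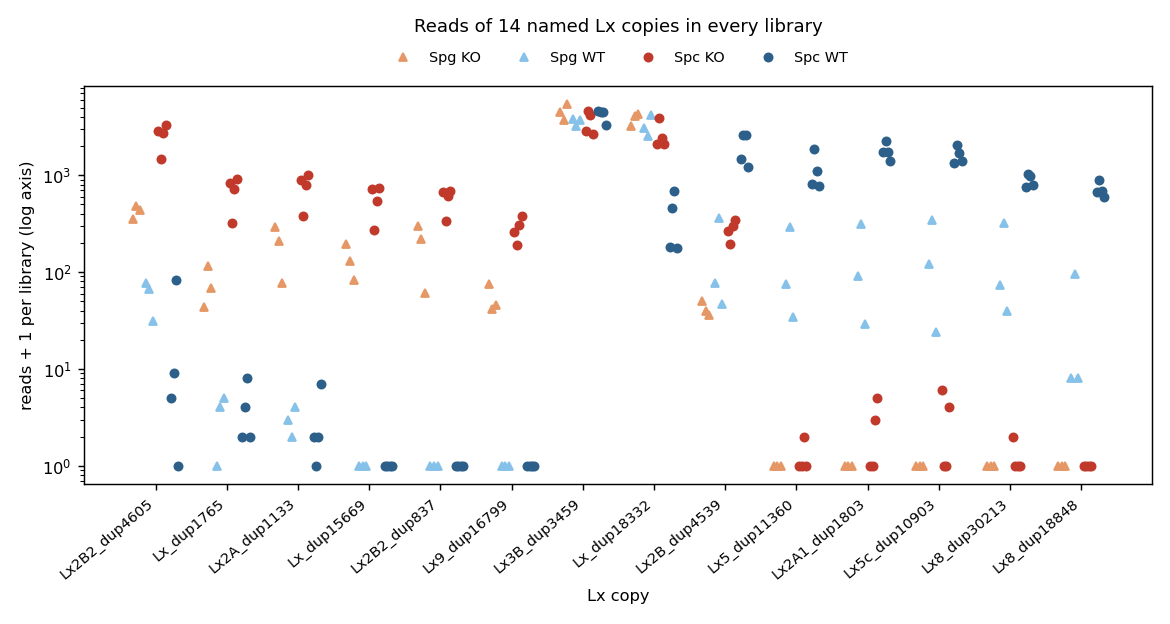
Reads + 1 (vertical log axis) of 14 named Lx copies (horizontal axis) in each library, with a point for each library of Spg KO, Spg WT, Spc KO and Spc WT. The 6 copies on the left reach 189 reads or more in every KO Spc library and at most 81 in any WT Spc library. Lx3B_dup3459 is high in all groups, Lx_dup18332 next to it is lowest in WT Spc, and the copies right of both are highest in WT Spc.

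Several of the highest copies overlapped processed pseudogenes for a small part of their length. The largest exon overlap was 688 of 5571 bp in Lx3B_dup3459, 268 of 6222 bp in Lx_dup18332 and 38 of 432 bp in Lx_dup6212. Whether reads were shared with a parent gene was not tested, and the levels are uncertain. Lx3B_dup3459 (chrX:152907041-152912611, minus strand, over Rpl7a-ps12 and Gm6472) held 75.9% to 89.9% of the Lx3B reads in KO Spc, WT Spc and WT Spg and had 2665 to 5423 reads in every library. Lx_dup18332 (chr12:116504194-116510415, minus strand, over Gm6750) had 2098 to 4335 reads in the Spg and KO Spc libraries and 180, 453, 688 and 178 in WT Spc. Thus WT Spc was the low group for this copy. Lx_dup6212 over Gm13245 and Lx2_dup17388 outside genes were 4-fold and 7-fold higher in KO than in WT Spc, the latter 22.2-fold without WT replicate 3, and neither passed limma (adjusted p = 0.0763 and 0.0602), while edgeR on reads called Lx2_dup17388 (log2 fold change 2.33, adjusted p = 0.0051) but not Lx_dup6212 (adjusted p = 0.119).

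The copies that fell were read mainly in wild-type spermatocytes. Lx5c_dup10903 (chr10:62696403-62698800, plus strand, in an intron of Stox1 on the other strand) had 1344, 2063, 1691 and 1404 reads in WT Spc and 5, 0, 0 and 3 in KO Spc. The means were 770-fold lower, and 1530-fold lower without KO replicate 1, but these ratios rest on 8 KO reads and are imprecise. In Spg this copy had 120, 340 and 23 reads in WT and 0 in each KO library. Stox1, a winged-helix gene on the opposite strand, went the other way, at 146, 345, 312 and 102 counts in KO against 6, 30, 62 and 4 in WT Spc (log2 fold change 2.68 ± 0.73, adjusted p = 0.00796). Lx8_dup30213 (chr10:18830061-18830788, minus strand) lay in an intron of the lincRNA 4930444F02Rik and had 761, 1026, 975 and 792 reads in WT Spc against 1, 0, 0 and 0 in KO. The lincRNA fell with it, with a log2 fold change of -9.21 ± 0.72 (adjusted p = 7.1e-06), and so did Lx8_dup30211 in the same intron, with 220, 311, 354 and 186 reads in WT Spc and 0 in KO.

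Lx8_dup18848 on chromosome 7 had 671, 898, 682 and 601 reads in WT Spc and 0 in each KO library, at least 220-fold lower. Lx5_dup11360 on chromosome 11 had 806, 1851, 1103 and 775 against 0, 0, 1 and 0, and held 17.6% of the Lx5 reads in WT Spc. Both were outside genes and far from a long young L1, at 251452 and 1199471 bp. Lx2B_dup4539 (chr12:51583988-51584906, plus strand), with 72.0% of Lx2B reads in WT Spc, had 1480, 2589, 2605 and 1204 reads there and 266, 196, 299 and 341 in KO Spc, 6.64-fold lower (limma -3.70 ± 0.28). Lx2_dup17491, at least 73.9-fold lower, and Lx8_dup45315, 63.8-fold lower, lay on chromosome 17. Lx2B2_dup1336 was 13 bp long and had 41, 8, 11 and 28 reads in WT Spc and 0 in each KO Spc library. In Lx8_dup17195, the copy in the exon of Gm26799 shown above, 491, 349, 311 and 323 reads in WT Spc stood against 30, 25, 38 and 23 in KO (limma -4.58 ± 0.36, adjusted p = 7.21e-05).

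Most Lx2A1 copies called lower lay in one stretch of chromosome 5. Of 2739 Lx2A1 copies 53 were tested in Spc, and 24 were lower and 5 higher, where 8.99% and 8.97% of all Lx copies and 4.06% and 7.17% of all TE copies were called. Of the 24, 17 lay between positions 10862954 and 13808750 of chromosome 5, a span of 2.95 Mb with 45 Lx2A1 copies. Together the 17 had 7881, 3891, 2528 and 6372 reads in WT Spc and 18, 0, 3 and 27 in KO Spc. In Spg they had 38, 373 and 7 reads in WT and 0 in each KO library, with most in WT replicate 2, the library with the highest pachytene markers. The span held 67.3% of all Lx2A1 reads in WT Spc, 3.20% in KO Spc and 29.4% in WT Spg. The single leading copy lay elsewhere: Lx2A1_dup1803 (chr10:85774255-85775536, plus strand, outside genes) had 1751, 2269, 1730 and 1398 reads in WT Spc, 23.2% of the subfamily's reads, and 0, 0, 2 and 4 in KO Spc. The means were 1100-fold lower, and 2420-fold lower without KO replicate 4, but these ratios rest on 6 KO reads and are imprecise.

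Gene starts were more frequent among the falling copies. A RefSeq gene-start window overlapped 409 Lx copies (0.118%) by at least 50 bases, 47 of the 7301 tested in Spc (0.644%), 1 of the 655 higher copies (0.153%) and 20 of the 656 lower copies (3.05%). Of these 20, 10 were Lx2A1 copies in the chromosome 5 span, and they overlapped the start windows of 11 genes. All 8 genes that could be tested were lower in KO Spc, with log2 fold changes from -10.44 to -8.12, and they share a repeated locus. They were taken through copies already called lower in these libraries. The 30.7% of all genes that edgeR called lower is therefore not a like background. Speer1, of a testis-expressed gene family, had 2273, 1267, 835 and 1920 counts in WT Spc and 4, 0, 0 and 7 in KO (log2 fold change -9.74 ± 0.96, adjusted p = 2.5e-05). The gene 4930437M23Rik, of which sequence before the start is shown above, had 697, 258, 285 and 529 counts in WT and 0, 0, 3 and 2 in KO (-8.97 ± 0.91, adjusted p = 2.86e-05). Reads on its Lx2A1_dup643 were 1412, 728, 395 and 1217 in WT Spc and 4, 0, 0 and 0 in KO.

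In the 5 of these genes where it could be compared, a stretch of similar sequence lay at or just before the start. The 8 windows that lay wholly within a falling Lx2A1 copy on the other strand all held CAGTTG or its reverse complement (13.7% of all). CAACTGTCAGTTG, which joins CAACTG and CAGTTG, was picked as the most common such pair in these same windows. It was in all 8, at 5 to 101 bases before the start, and in 14 of all 32817 gene-start windows (0.0427%), these 8 among them. That count is therefore no test of the pair. TGACGTCA was in 0 (1.79% of all) and TATAAA in 0 (13.6%). A 133-base stretch around the pair lay wholly inside 5 of the windows, with 88.7% to 100% identity between them. The remaining windows ended too close after the pair to hold this stretch and were not compared. The 2 printed sequences were 89.5% identical with 14 bases different. The windows are therefore not independent cases, and the search was made after the values had been seen.

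The Spg libraries, which took no part in the Spc test, were read at every copy called in Spc, with no filter on Spg values. Of the 655 higher copies, 254 (38.8%) had more reads per 1000000 counts in every KO than in every WT Spg library and 5 (0.763%) fewer throughout, while 356 overlapped and 40 had no read in Spg. Among all 7301 Lx copies tested in Spc 6.44% were higher and 2.88% lower throughout in Spg. Of the 656 lower copies, 67 (10.2%) were lower and 2 (0.305%) higher throughout, 411 overlapped and 176 had no read in Spg. Most of the copies called in Spc thus had overlapping groups or no reads in Spg. Without WT replicate 2 of Spg, 264 (40.3%) of the higher copies were higher throughout and 70 (10.7%) of the lower copies lower throughout, against 8.23% and 4.19% of all 7301.

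**Figure D5:**
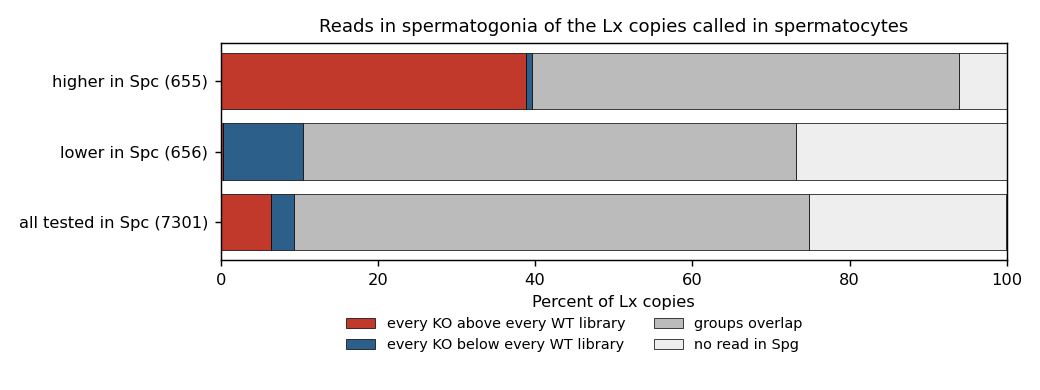
Percent of Lx copies (horizontal axis) by how their reads per 1000000 counts in the 3 KO and 3 WT Spg libraries compare, for copies called higher in Spc, called lower in Spc, and all tested in Spc (vertical axis). Every KO library lies above every WT library for 38.8% of the copies higher in Spc, 0.305% of those lower and 6.44% of all, and below for 0.763%, 10.2% and 2.88%.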

How the data were processed

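Poly-A RNA of sorted Spg and Spc was sequenced from stranded libraries. Per the labels, the authors trimmed reads with cutadapt 4.0, aligned them with STAR 2.7.3a to GRCm38 and ran DESeq2 1.44.0. By the study's methods, reads with many alignments were kept, and TEtranscripts and TElocal assigned them to subfamilies and copies, so that reads of similar copies can be split among them. The deposited subfamily tables hold raw counts per gene and TE subfamily. The deposited copy tables hold TPM computed by the authors over TE copies alone, summing to 1000000 in each library. The tables' fold change and p-value columns hold the authors' own comparisons and were not used.

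TPM times length was a whole multiple of 1 step per library (tolerance 0.01) for 100% of values, which gave back whole reads. CPM are counts per 1000000 after TMM scaling unless said otherwise, and RPM are unscaled reads on copies per 1000000 gene and TE counts. Subfamily counts were tested with edgeR 4.0.16 (quasi-likelihood, TMM, adjusted p under 0.01) in R 4.3.3, KO against WT within each stage, and over all 4 groups for the stage differences. Copies were tested with limma 3.58.1 on log2(TPM + 0.1) at a mean TPM of at least 0.5, with fold changes understated for low copies, and with edgeR on recovered reads. DESeq2 1.42.0 was an alternative. Summed values were compared by exact permutation tests (SciPy 1.17.1). All fits ran over whole tables, and the scripts were tested on simulated data. Libraries held 40555726 to 53323651 counts, and intervals and floors cover counting error only. The study describes 3 biological replicates per genotype, fewer than the 4 Spc libraries, and the labels do not tie libraries to animals, so that p-values measure the spread between these libraries.

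Same-numbered KO and WT Spg libraries had correlations of deviations of 0.519, 0.167 and 0.181, and differently numbered ones -0.452 to 0.263. KO replicate 2 was closer to WT replicate 3 (0.263) than to WT replicate 2, so pairing by number was not established. Named were all Lx subfamilies, the copies with the largest rise and fall among called copies without overlap, the copies with the highest TPM in each group and the leading copy of each called subfamily. Gm20750, Gm26799, the Lx2A1 copies of chromosome 5 and the genes starting there were chosen after their values were seen. Members and lists were chosen with earlier results of these data known.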

Additional observations from a re-analysis of the deposited data

Results flagged for a closer look

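Within groups of 4 libraries, 93 values were searched for a library that stood apart (gap to the nearest library over the whole range above the 95% Dixon limit), of which chance alone gives about 1 in 20, and 11 were found. Among the KO Spc libraries the ratio was 0.977 for Lx3C, 0.882 for Lx5, 0.907 for Lx6 and 0.838 for Lx7 in TMM-scaled CPM, 0.848 for the RPM of Lx2B2_dup837 and 0.96 for the summed TPM of Lx copies in introns on the same strand. Among the WT Spc libraries it was 0.901 for Lx as a percent of counts, 0.951 for Lx5b, 0.901 for Lx2B2_dup4605, 0.839 for Lx2A_dup1133 and 0.916 for Lx copies in introns on the same strand.

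The KO effect in Spc minus that in Spg passed the test for Lx2A1, at -3.49, and for Lx3B, at -0.89, on the log2 scale. Without the leading copy of Lx3B its log2 ratio in RPM was larger in Spc (1.35) than in Spg (0.42).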

How the results depend on the processing

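Between KO and WT Spc, the 6 called Lx subfamilies became 12 at an adjusted p under 0.05, 10 with DESeq2, 3 with Spc replicates 1 and 4 summed (1 higher, Lx, and 2 lower, Lx2A1 and Lx2B) and 4 to 9 without 1 library. The 2 calls of the stage difference became 4 at 0.05, 1 with those replicates summed and 1 to 3 without 1 library. In WT the 17 became 5 with library totals and 6 to 17 without 1 library. Between KO Spc and KO Spg the 3 became 13 at 0.05, 12 with DESeq2, 1 with library totals, 1 without the filter, 0 with those replicates summed and 0 to 6 without 1 library. The 1311 called Lx copies in Spc (655 higher, 656 lower) became 2050 at 0.05 (1095 and 955), 761 at a mean TPM of at least 2 (297 and 464), 507 with replicates 1 and 4 averaged (200 and 307) and 704 to 1550 without 1 library. The 0 in Spg became 1 with a pseudocount of 0.5, 1 at a mean TPM of at least 0.1 and 122 with edgeR on reads.

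The difference in Lx share was -4.114 percentage points over TE counts in Spc (reversed), 0.06404 to 0.09307 without 1 library, and -0.0008252 to 0.02831 in Spg. RPM (reads per 1000000 counts) reversed the log2 ratios of same-strand exons (0.214), same-strand introns (0.681, and 0.112 as a share of Lx TPM) and copies far from a long young L1 (0.366), and turned the sign outside genes (from -0.46 to 0.67, neither past the threshold). Without 1 library the ratio near a long young L1 was 2.424 to 2.792 in Spc and 1.513 to 2.076 in Spg, and that downstream on the same strand 4.549 to 4.998 and 3.184 to 3.836. Those Spc fits of 4 against 3 libraries cannot reach p under 0.05. With the replicate block 448 Lx copies were called in Spc (159 higher, 289 lower), where same-numbered libraries correlated at 0.077, 0.208, -0.005 and 0.120 and share only a number, and 0 in Spg. The cause of these changes was not tested. Depth limits copies with few reads.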
